A study of Mus musculus with 6 samples.

Results

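The genes described here are 7 transcription factors known for mesenchymal transition, namely Snai1 and Snai2 of the Snail family, Twist1 and Twist2 of the Twist family, Zeb1 and Zeb2 of the Zeb family, and the homeobox gene Prrx1. They were taken by symbol from an expression table of 45038 mouse genes, with no filter on expression, and each symbol matched 1 row. The table came from RNA sequencing of cells sorted from the hearts of C57BL/6 mice that carried Tie2-Cre and Rosa-LSL-tdTomato, a reporter that turns red in cells where Cre has been active and in their descendants. The Tie2 promoter is active in endothelial cells and also in part of the blood lineage, so the reporter alone does not mark endothelium. Cells positive for tdTomato and negative for F4/80, a macrophage surface antigen, were sorted in both groups. The MI group came from infarct tissue 3 weeks after the left anterior descending coronary artery was tied off in mice 6 to 8 weeks old. The Normal group came from normal left ventricle, and its labels give no infarct surgery. Each group held 3 libraries, titled Ms1535, Ms1537 and Ms1608, and nothing in the labels says whether libraries of a group came from separate mice, so p-values measure only the spread between these libraries.

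In mesenchymal transition, epithelial or endothelial cells lose their junctions and take on features of connective tissue cells. Snail and Zeb proteins are zinc finger repressors that bind E-boxes in the promoters of cadherin genes, Twist proteins are basic helix-loop-helix factors that pair with E proteins such as Tcf3, and Prrx1 is a homeodomain factor of limb and connective tissue mesenchyme. The same genes are used by cells that are mesenchymal from the start, since Twist1, Prrx1 and Snai2 are expressed in fibroblasts, and Zeb2 is expressed in many leukocytes. The series concerns cardiac endothelial cells in infarct tissue, and the comparison addressed here is how these factors differ between the population sorted from infarct and that from normal muscle.

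Values are FPKM, fragments assigned to a gene divided by transcript length and by the mapped fragments of the library. The RNA was amplified by in vitro transcription, and whether reads covered transcripts evenly was not checked. Comparisons of level between different genes, and shares of a summed level, are therefore approximate. Where values are listed for a group, they are in the order Ms1535, Ms1537, Ms1608. The low values fell on steps of 1 fragment, from which implied totals of 34.2 to 47.6 M fragments (M for mega) per library were read, while the labels' protocol gives about 10 megabyte reads per sample, a difference that was not reconciled. Normal Ms1608 stood apart from the other 5 libraries. Across 11280 genes with a mean of at least 1 FPKM, its Pearson correlations of log2(FPKM + 1) with them were 0.53 to 0.64, whereas theirs with each other were 0.76 to 0.89 (genes are not independent replicates). Of 16 pan-endothelial markers, 3 reached 1 FPKM in Normal Ms1608, against 15 or 16 in each other library. The differences of the 7 factors are therefore given with and without that library, as are other results where leaving it out turns a direction or moves a count by over 1.5 times. The correlations between genes over libraries use all 6. In bulk RNA of sorted cells, fewer cells of a type and less RNA per cell cannot be told apart.

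All 7 factors had values above 0 in all 6 libraries, but those of Snai2, Twist2 and Prrx1 in Normal Ms1608 (0.0144, 0.0379 and 0.0411 FPKM) were under the 0.0444 FPKM that 3 fragments give on a transcript of 2 kb there. In MI the highest was Zeb2. It stood at 16.8, 30.9 and 8.66 FPKM there. Zeb1 followed at a median of 7.69 FPKM, then Prrx1 at 4.77, Twist1 at 4.73, Snai2 at 4.65, Snai1 at 2.63 and Twist2 at 0.459 FPKM. Among neighbours in this order the ranges over the 3 MI libraries overlapped, except that every Snai1 value lay above every Twist2 value. In Normal the order began with Zeb1 at a median of 4.85 FPKM and Snai2 at 4.72 FPKM, followed by Snai1 at 1.01, Zeb2 at 0.824, Prrx1 at 0.385, Twist1 at 0.383 and Twist2 at 0.199 FPKM. All neighbours in the Normal order overlapped. Each factor except Zeb2 was lowest in Normal Ms1608.

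**Figure D1:**
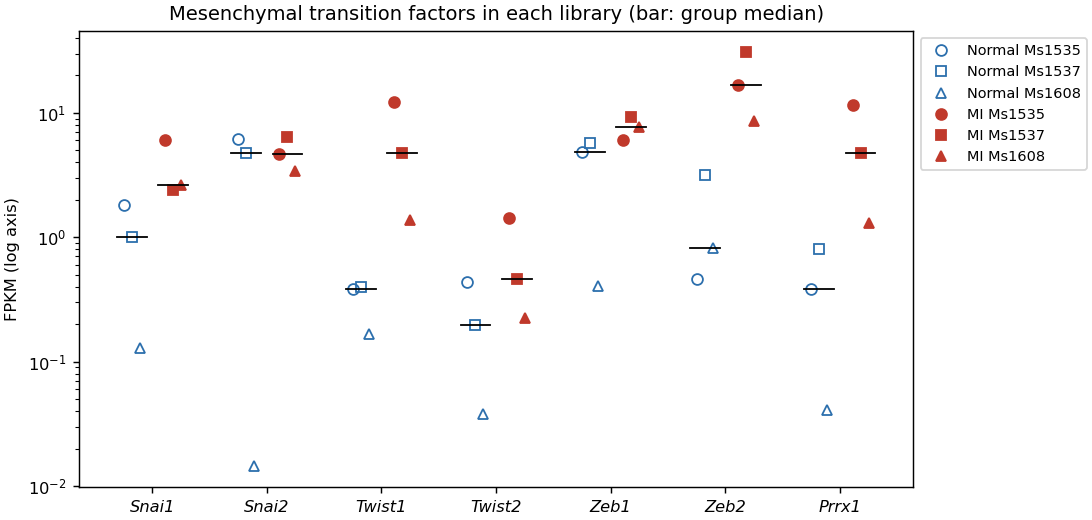
Level of each factor in each library, in FPKM on a log axis; filled red symbols are MI, open blue symbols are Normal, the symbol shape gives the library number and each bar is a group median. The MI symbols of Snai1, Twist1, Zeb1, Zeb2 and Prrx1 all lie above the Normal symbols, those of Snai2 and Twist2 do not, and Normal Ms1608 is the lowest point for 6 of the 7 genes.

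Twist1 showed the largest ratio of group means, 19.4-fold. It was measured at 12.3, 4.73 and 1.38 in the MI libraries versus 0.383, 0.398 and 0.167 FPKM in the Normal ones. All MI values lay above all Normal values, but the MI values themselves spanned 8.90-fold from the lowest to the highest. Twist1 has 1 annotated transcript of 1628 bases, from which the Normal values correspond to 24, 20 and 9 fragments and the MI values to 846, 276 and 68, so the difference was well above counting error. Differences are in log2(FPKM + 1), where the changes of low genes are understated. MI minus Normal was 2.11 (SE 0.70, limma adjusted p = 0.650, unadjusted p = 0.0217). Without Normal Ms1608 it was 2.02 (SE 0.79, limma adjusted p = 0.412). Twist1 lies on chromosome 12 of GRCm38 at 33957671 to 33959829 on the plus strand.

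Prrx1 was close to Twist1 in each MI library. Its levels were 11.6, 4.77 and 1.30 in the MI libraries versus 0.385, 0.804 and 0.0411 FPKM in the Normal ones. The groups did not overlap, and MI Ms1608 was again the lowest of the MI libraries. The means were 5.89 ± 5.24 FPKM for MI against 0.410 ± 0.382 for Normal (SD, n = 3 each), a ratio of 14.4. MI minus Normal was 2.0 on the log2 scale (SE 0.71, limma adjusted p = 0.650, unadjusted p = 0.0291), and 1.80 (SE 0.79, limma adjusted p = 0.459) without Normal Ms1608. The ratio of Prrx1 to Twist1 FPKM was 0.944, 1.01 and 0.942 in MI Ms1535, Ms1537 and Ms1608 and 1.0 in Normal Ms1535, and departed from these only in Normal Ms1537 (2.02) and Normal Ms1608 (0.245). Prrx1 lies on the minus strand of chromosome 1 at 163245119 to 163313710 and has 5 annotated transcripts.

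Twist2, the second Twist gene, which also represses transcription with E proteins, stayed low. It was measured at 1.42, 0.459 and 0.225 in the MI libraries versus 0.439, 0.199 and 0.0379 FPKM in the Normal ones. The groups overlapped, since Normal Ms1535 lay above MI Ms1608. MI minus Normal was 0.42 on the log2 scale (SE 0.36, 95% interval -0.44 to 1.29, limma adjusted p = 0.650), and 0.31 (SE 0.43, limma adjusted p = 0.689) without Normal Ms1608. Twist2 lies on the plus strand of chromosome 1 at 91801461 to 91848028, and 1477 of its exonic bases overlap the antisense gene Gm29100, which was at 0.0343 FPKM or less. The ratio of Twist1 to Twist2, which a scaling factor common to a library's genes cannot change, was 8.65, 10.3 and 6.14 in MI and 0.874, 2.0 and 4.41 in Normal. The MI and Normal ratios did not overlap, but the closest Normal ratio, 4.41 in Normal Ms1608, divides by a Twist2 value under the level of 3 fragments. This pair was taken up after its levels were seen, and no test was made of it.

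The upstream sequences of the Twist genes, Prrx1 and Snai1 are given because Twist1 and Prrx1 had near-equal levels, Twist2 did not share them, and Snail-type repressors bind the E-box CACCTG. They are the 250 bases before the first annotated start in RefSeq, on GRCm38.p6, 5′ to 3′ on the strand of the gene, in lower case with each CACCTG or its reverse complement CAGGTG in capitals. The windows are chr12:33957421-33957670 (plus strand) for Twist1, chr1:91801211-91801460 (plus) for Twist2, chr1:163313651-163313900 (minus) for Prrx1 and chr2:167537945-167538194 (plus) for Snai1. In GENCODE the Prrx1 gene reaches to 163313710, so part of its window lies inside the gene as annotated there.
Twist1: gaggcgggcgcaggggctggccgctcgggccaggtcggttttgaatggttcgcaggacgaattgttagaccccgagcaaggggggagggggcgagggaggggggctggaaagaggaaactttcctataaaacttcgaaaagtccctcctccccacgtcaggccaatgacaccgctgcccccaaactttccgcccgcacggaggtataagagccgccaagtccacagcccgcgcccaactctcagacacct
Twist2: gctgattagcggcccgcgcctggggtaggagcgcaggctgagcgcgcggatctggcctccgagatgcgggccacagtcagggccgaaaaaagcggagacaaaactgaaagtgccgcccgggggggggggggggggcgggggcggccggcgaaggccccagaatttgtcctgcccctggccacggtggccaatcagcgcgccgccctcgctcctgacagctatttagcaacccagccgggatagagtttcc
Prrx1: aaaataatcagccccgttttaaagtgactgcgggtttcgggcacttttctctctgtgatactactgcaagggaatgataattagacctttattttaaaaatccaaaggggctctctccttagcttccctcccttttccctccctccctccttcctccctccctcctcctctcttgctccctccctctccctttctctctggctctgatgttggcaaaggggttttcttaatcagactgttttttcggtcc
Snai1: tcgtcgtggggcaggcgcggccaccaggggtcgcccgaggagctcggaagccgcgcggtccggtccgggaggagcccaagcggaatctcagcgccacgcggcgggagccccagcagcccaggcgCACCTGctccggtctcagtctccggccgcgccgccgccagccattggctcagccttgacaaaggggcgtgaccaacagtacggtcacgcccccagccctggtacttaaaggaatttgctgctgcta
In these windows the CACCTG E-box occurred once, in Snai1, with its first base at position -126 from the start. Either strand of it was found in 17.2% of 32851 promoter windows of the same length. The looser E-box CANNTG, which includes CACCTG, was found in 66.2% of the windows, and of these 4 genes only the Snai1 window held it. No match says only that these letters are not in the window. The windows differed in base composition. GC content was 70.0% for Snai1, 68.8% for Twist2, 62.4% for Twist1 and 47.6% for Prrx1, against a median of 52.4% over all windows. CCAAT, read on both strands and present in 33.8% of windows, occurred in those of Twist1, Twist2 and Snai1, and TATAAA, in 12.4% of windows on either strand, in that of Twist1. The Prrx1 window held none of the 4 motifs searched, so it could share none with Twist1 or any other gene.

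Zeb2 had the largest difference of the 7. Against the MI levels given above, it was measured at 0.461, 3.19 and 0.824 FPKM in the Normal libraries. The lowest MI library lay 5.47 FPKM above the highest Normal library. Means were 18.8 ± 11.2 FPKM for MI against 1.49 ± 1.48 for Normal (SD, n = 3 each), a ratio of 12.6. MI minus Normal was 2.98 on the log2 scale (SE 0.66, 95% interval 1.37 to 4.58, limma adjusted p = 0.650, unadjusted p = 0.00364), and 2.83 (SE 0.71, limma adjusted p = 0.266) without Normal Ms1608. Zeb2 lies on the minus strand of chromosome 2 at 44983632 to 45117395, and 653 bases of its exons overlap those of the antisense RNA Zeb2os. Zeb2os was measured at 28.7, 32.8 and 6.12 in the MI libraries versus 1.54, 0.401 and 0.305 FPKM in the Normal ones, which was also without overlap between groups. The strand setting was not given in the sources used here, so reads from the shared exons cannot be told apart.

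Zeb1, the paralog of Zeb2 with the same zinc finger design, differed less. It was at 6.06, 9.30 and 7.69 in the MI libraries versus 4.85, 5.73 and 0.402 FPKM in the Normal ones. The groups did not overlap, but the gap between the highest Normal and the lowest MI value was 0.328 FPKM. MI minus Normal was 1.17 (SE 0.70, 95% interval -0.53 to 2.87, limma adjusted p = 0.650), and 0.45 (SE 0.33, limma adjusted p = 0.559) without Normal Ms1608. The ratio of Zeb2 to Zeb1 was 2.77, 3.32 and 1.13 in MI and 0.0952, 0.558 and 2.05 in Normal, so Zeb2 exceeded Zeb1 in the 3 MI libraries and in Normal Ms1608. Zeb1 lies on the plus strand of chromosome 18 at 5591860 to 5775467, and 198 of its exonic bases overlap Gm10125, which was at 0.0882 to 0.304 FPKM.

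Snai1, a repressor of cadherin genes, was at 6.08, 2.39 and 2.63 in the MI libraries versus 1.82, 1.01 and 0.130 FPKM in the Normal ones. The groups did not overlap, and the smallest gap was 0.577 FPKM. The value in Normal Ms1608 corresponds to 7 fragments (95% Poisson interval 0.0525 to 0.269 FPKM, for counting error only). MI minus Normal was 1.26 (SE 0.57, 95% interval -0.12 to 2.63, limma adjusted p = 0.650) and 0.90 (SE 0.51, limma adjusted p = 0.523) without Normal Ms1608. Snai1 lies on chromosome 2 at 167538195 to 167542814.

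Snai2, which encodes the Snail protein known as Slug, did not share this pattern. Its MI values were 4.65, 6.41 and 3.42 FPKM, and its Normal values 6.12, 4.72 and 0.0144 FPKM, the last in Normal Ms1608. That last value corresponds to 1 fragment (95% Poisson interval 0.000371 to 0.0816 FPKM), whereas the other Normal libraries held 484 and 303 fragments of Snai2. The groups overlapped, and MI minus Normal was 0.72 with all libraries (SE 0.83, 95% interval -1.27 to 2.71, limma adjusted p = 0.688). It turned to -0.16 without Normal Ms1608 (SE 0.38, 95% interval -1.14 to 0.81, limma adjusted p = 0.812). The ratio of Snai1 to Snai2 was 1.31, 0.373 and 0.770 in MI and 0.297 and 0.214 in Normal Ms1535 and Ms1537, but 9.0 in Normal Ms1608, where Snai2 rests on that 1 fragment. Snai2 lies on chromosome 16 at 14705852 to 14709385.

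In the fit over 30623 genes, limma called 0 of the 7 factors at an adjusted p of 0.05, and called 1 gene in all, a share of 0.00327%. That gene, Gm24890, was chosen for mention after its values were seen and is listed at 0 in the 3 Normal libraries. At an unadjusted p under 0.05, 3 of the 7 factors were higher (Twist1, Zeb2 and Prrx1) and 0 lower, where 6.37% of all genes were higher and 0.601% lower. Among the 10168 genes with at least 1 FPKM in 3 or more libraries, which hold 6 of the 7 factors, the share higher was 15.3%. Without Normal Ms1608, 2 of the 7 factors (Twist1 and Zeb2) were higher at that threshold. So were 2932 of 29631 genes, and 2723 of the 10168. Every MI value lay above every Normal value for 5 of the 7 factors, against 12.6% of all genes and 25.0% of the 10168. Without Normal Ms1608 the same count was 5 of 7 against 25.3% of all genes and 52.6% of the 10168. The median difference was 1.26 over the 7 factors and 0.78 over the 10168 genes. Relative to that shift the differences were 2.19 for Zeb2, 1.33 for Twist1, 1.22 for Prrx1, 0.47 for Snai1, 0.39 for Zeb1, -0.06 for Snai2 and -0.36 for Twist2. Without Normal Ms1608 the median was 0.90 over the 7 factors and 0.83 over the 10168 genes. The excess of the factors was then 0.07, against 0.47 with all libraries. Of the 7 factors, 4 then lay above the median of the 10168 genes, against 5 with all libraries, and Zeb1 (0.45) lay under it.

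**Figure D2:**
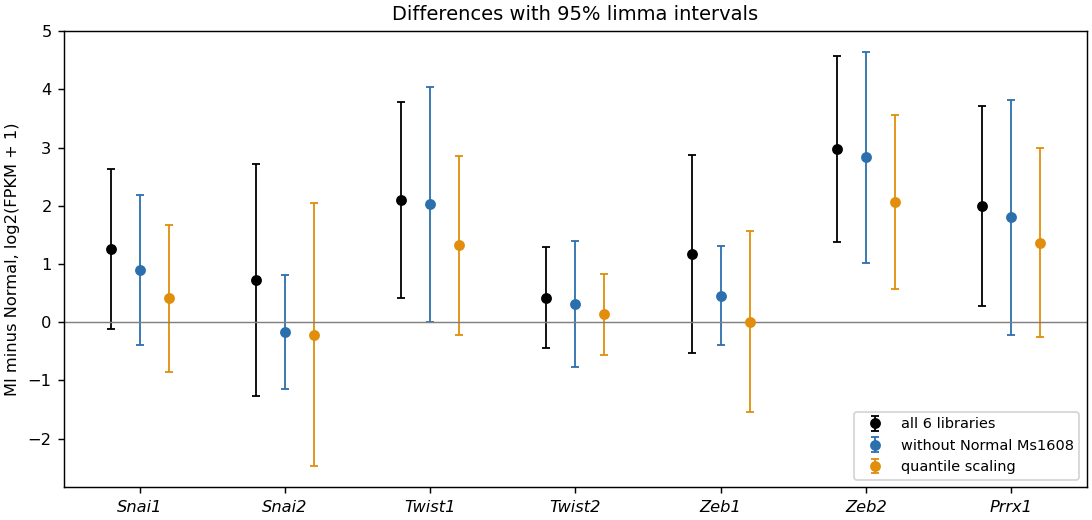
MI minus Normal for each factor on the log2(FPKM + 1) scale, with 95% limma intervals, for all 6 libraries, without Normal Ms1608 and after quantile scaling. Zeb2 keeps an interval above 0 in all 3 (2.98, 2.83 and 2.07), Twist1 and Prrx1 keep positive differences, with intervals that cross 0 after quantile scaling and, for Prrx1, also without Normal Ms1608, and Snai2 changes sign.

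Scaling between libraries mattered for the smaller differences. Median-ratio, upper-quartile and quantile scaling brought the median of the 10168 genes from 0.78 to 0.02, 0.20 and 0.04. Zeb2 was then 2.18, 2.37 and 2.07, Twist1 was 1.53, 1.65 and 1.32, and Prrx1 was 1.43, 1.48 and 1.37, whereas Zeb1 was 0.39, 0.46 and 0.01 and Snai1 0.66, 0.70 and 0.41. Under each of the 3 scalings, Zeb2 and Twist1 were the 2 factors whose MI values all lay above the Normal values. So did 4.42%, 5.12% and 4.41% of all genes, and 795, 931 and 675 of the 10168 genes.

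The make-up of the factor pool within a library does not depend on a scaling factor common to its genes. The summed level of the 7 factors was 58.8, 58.9 and 25.3 in the MI libraries versus 14.4, 16.1 and 1.62 FPKM in the Normal ones. In Normal Ms1535 and Ms1537, Snai2 and Zeb1 together led the pool, with 42.3% and 29.4% for Snai2 and 33.5% and 35.7% for Zeb1. Snai2 held 7.91%, 10.9% and 13.5% of the pool in MI and 0.891% in Normal Ms1608. Zeb2 was the largest share in every MI library, at 28.5%, 52.4% and 34.2%, and also in Normal Ms1608, at 50.9%, against 3.19% and 19.9% in the other Normal libraries. Twist1 and Prrx1 held 20.9% and 19.7% in MI Ms1535, 8.03% and 8.09% in MI Ms1537 and 5.45% and 5.14% in MI Ms1608. Twist2 held between 0.779% and 3.04% in all 6 libraries.

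**Figure D3:**
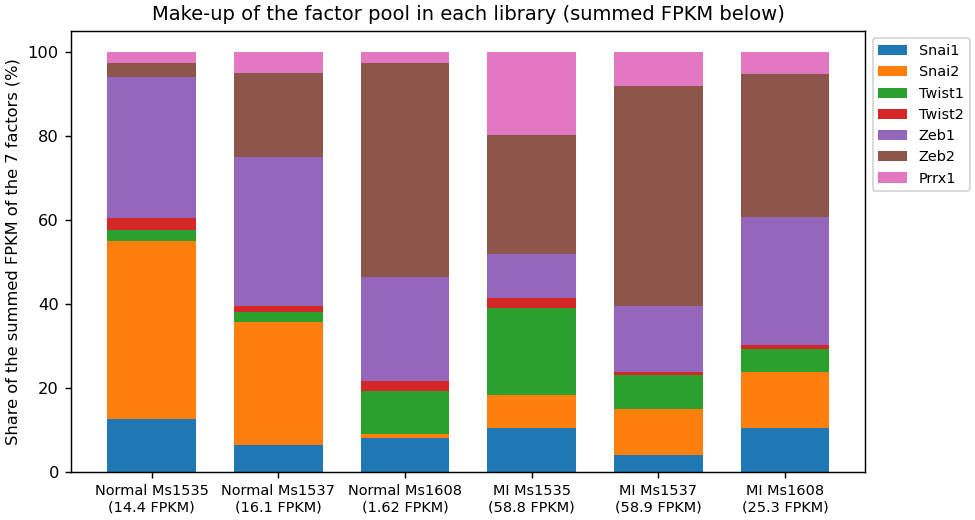
Stacked bars give the share of each factor in the summed FPKM of the 7, in percent, for each library, with the summed FPKM under the library name. Snai2 and Zeb1 fill most of Normal Ms1535 and Ms1537, and Zeb2 is the largest block in the MI libraries and in Normal Ms1608.

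Each factor was also set against marker genes of the cell types that the sort could hold, as FPKM of the factor per 100 FPKM of the marker. Against Dcn, the fibroblast proteoglycan decorin, Twist1 was at 0.405, 0.174 and 0.197 in MI and 0.0724, 0.0562 and 0.160 in Normal. Prrx1 was at 0.382, 0.176 and 0.185 per 100 FPKM of Dcn in MI and 0.0726, 0.114 and 0.0394 in Normal. These 2 of the 7 factors had every MI ratio above every Normal ratio, where 1.34% of all genes did. Without Normal Ms1608, an alternative chosen after seeing the data, Zeb2 joined them (3 of 7, against 4.76% of all genes) and Snai2 lay below in every MI library (15.3% of all genes lay so). Against Pdgfra, a fibroblast receptor, 0 of the 7 did (0.586% of all genes), and Zeb1 lay lower in every MI library (23.3% of all genes lay so). Pdgfra itself was at 0.0375 FPKM in Normal Ms1608, under the level of 3 fragments, so the ratios of that library are unreliable, and without it Snai2 and Zeb1 lay lower (28.3% of all genes). Against Cdh5, the endothelial cadherin, Prrx1 was above in every MI library with all libraries (3.71% of all genes), at 42.0, 6.05 and 20 against 0.956, 3.26 and 3.42. Without Normal Ms1608, where Cdh5 was low, Twist1, Zeb2 and Prrx1 were above (18.3% of all genes). Against Ptprc, the leukocyte antigen CD45, 0 of the 7 were separated in either direction (1.15% of all genes above and 4.77% below). Without Normal Ms1608, where Ptprc was highest, Snai1, Snai2, Twist2 and Zeb1 lay below in every MI library, as did 52.7% of all genes.

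The likeness of expression patterns was described by Pearson's r of log2(FPKM + 1) over the 6 libraries, with no test. With 6 points that share 1 outlying library, high values are common, and between 0.155% and 5.61% of 5173 candidate genes (5172 for Zeb1 and Zeb2) with a mean of at least 5 FPKM had an r of 0.95 or more with a given factor. Among the 7, the closest pair was Twist1 and Prrx1 (r = 0.99), followed by Snai2 and Zeb1 (r = 0.93). Snai2 and Twist1 had the lowest r, at 0.42. Among marker genes of the cell type lists, the 3 nearest to Prrx1 included Col1a1 (r = 0.99) and Col1a2 (0.94), and the 3 nearest to Twist1 included Col1a1 (0.98) and Col1a2 (0.96). Col1a1 and Col1a2 encode the chains of type I collagen.

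Snai2 was nearest to endothelial markers, Egfl7 (r = 0.99), Eng (0.98) and Kdr (0.98). Egfl7, a secreted endothelial protein, had 278, 716 and 207 FPKM with infarct versus 909, 669 and 5.27 FPKM without. Egfl7, Eng, Kdr and Snai2 are all lowest in Normal Ms1608. Zeb1 was nearest to Gsn (0.96) and Dpt (0.92) of the fibroblast list and to Egfl7 (0.89). Zeb2 was nearest to Cd8a (0.98) of the T and NK list, to Mfap5 (0.95) of the fibroblast list and to Acta2 (0.92). Snai1 and Twist2 shared Wt1 (0.96 and 0.94) and Col1a1 (0.93 and 0.91) as their first 2, and the next was Lum (0.89) for Snai1 and Kcnj8 (0.81) for Twist2. Over all candidate genes the first 3 were Atp5b, Pip5k1a and Polr1c for Snai1, Cd151, Commd1 and Uqcr11 for Snai2, and Atrx, Ssr4 and Calr for Twist1. They were Rpap3, Spon2 and Prrc2c for Twist2, Ggnbp2, Pttg1ip and Psmc4 for Zeb1, Trmt61a, Klrk1 and Prr13 for Zeb2, and Rab34, Ssr4 and Fndc1 for Prrx1, with r between 0.97 and 1.00 throughout.

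**Figure D4:**
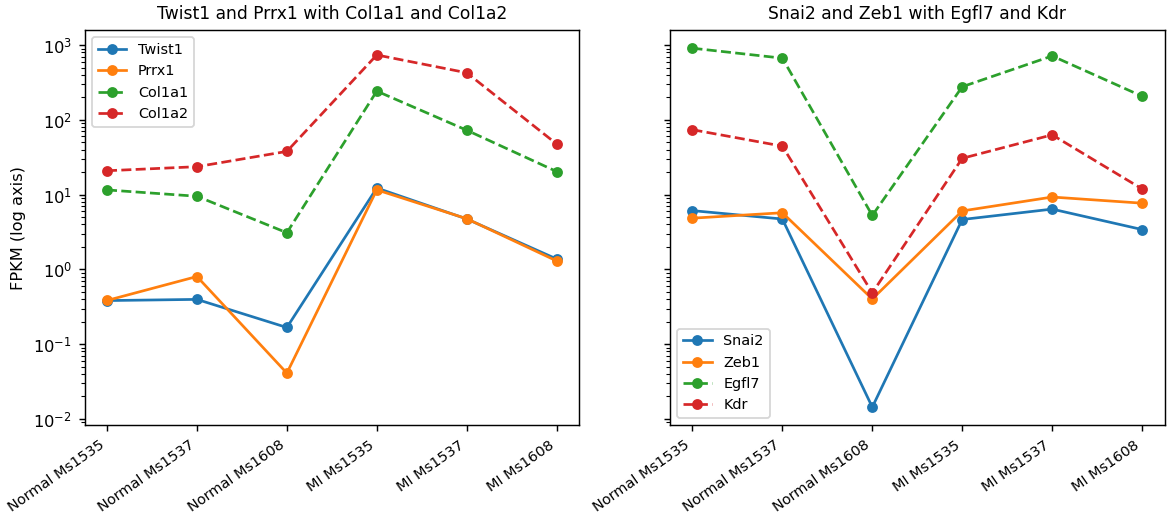
Levels in FPKM on a log axis over the 6 libraries for Twist1 and Prrx1 beside Col1a1 and Col1a2 (left) and for Snai2 and Zeb1 beside Egfl7 and Kdr (right); lines join the values of 1 gene to guide the eye. On the left all 4 genes are highest in MI Ms1535 and, among the MI libraries, lowest in MI Ms1608, and on the right all 4 are lowest in Normal Ms1608.

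The factors act with partner proteins and on target genes, which were followed in lists written from textbook knowledge, and 0 genes of these lists passed the limma threshold in either direction. The counts of these lists and of the cell type lists stand against the shares given above, 12.6% of all genes and 25.0% of the 10168 expressed genes with every MI value above every Normal value, 25.3% and 52.6% without Normal Ms1608, and 6.37% and 15.3% higher at an unadjusted p under 0.05. Every MI value lay below every Normal value for 611 of 30623 genes, and for 36 of the 10168. Without Normal Ms1608 these numbers were 1762 of 29631 and 178 of the 10168. In that setting 2932 of 29631 genes, and 2723 of the 10168, were higher at an unadjusted p under 0.05. Among 16 mesenchymal genes that transition is known to raise, 6 had every MI value above every Normal value. The shares were 12.6% of all genes and 25.0% of expressed genes, to which 12 of the 16 belong. At an unadjusted p under 0.05, 5 were higher, against 6.37% of all and 15.3% of expressed genes. Without Normal Ms1608, 8 of the 16 had separated groups, against 52.6% of expressed genes. At the same p threshold 7 were then higher, against 2723 of the 10168. The list's median difference was 1.86, which is 1.07 above the median of the 10168 expressed genes, and it lay between 1.10 and 1.46 under the 3 scalings. The largest differences were those of Postn (4.54), Col3a1 (3.40) and Col1a2 (3.17, limma adjusted p = 0.650 for each). Vim, the intermediate filament vimentin, was at 466, 583 and 168 FPKM with infarct versus 120, 98.5 and 394 FPKM without, and Normal Ms1608 lay above MI Ms1608. Cdh2, N-cadherin, and Fn1, fibronectin, had differences of 0.96 and 2.2 (limma adjusted p = 0.650 for each).

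Among 10 junction genes that transition is known to repress, 1 had every MI value above every Normal value. The shares were 12.6% of all genes and 25.0% of expressed genes, to which 7 of the 10 belong. Every MI value lay below for 0 of the 10 (against 611 of 30623 genes). The median difference was 0.38 as deposited, with 8 of the 10 genes above 0. It turned negative under all 3 scalings (-0.17, -0.14 and -0.33) and was -0.33 without Normal Ms1608, with 3 of the 10 above 0. Cdh5 was at 27.6, 78.8 and 6.50 FPKM with infarct versus 40.3, 24.7 and 1.2 FPKM without, and its difference of 0.96 (SE 1.36, limma adjusted p = 0.744) was 0.03, 0.18 and -0.06 under the median-ratio, upper-quartile and quantile methods and -0.34 without Normal Ms1608. Esam and Tjp1, a junctional adhesion molecule and a tight junction scaffold, had differences of 0.76 and 0.56 that turned negative under all 3 scalings, and to -0.90 and -0.32 without Normal Ms1608 (limma adjusted p with all libraries 0.818 and 0.782). Cdh1, E-cadherin, the textbook target of Snail and Zeb repressors in epithelium, was the gene with separated groups. It was low in all libraries, at 0.713, 0.427 and 0.243 FPKM with infarct versus 0.0645, 0.0606 and 0.0819 FPKM without, with a difference of 0.44 (SE 0.16, limma adjusted p = 0.650) and 0.21 to 0.30 under the scalings.

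Of the 3 further paralogs in the table, Prrx2, a homeobox gene close to Prrx1, was at 4.03, 3.88 and 0.614 FPKM with infarct versus 0.20, 0.407 and 0.0904 FPKM without. Its groups did not overlap and its difference was 1.48 (SE 0.59, limma adjusted p = 0.650). Among the 10 other factors of mesenchymal or epicardial cells, 2 had separated groups, Tbx18 and Hand2 (named after their values were seen), and the largest differences among genes with a mean of at least 1 FPKM were those of Wt1 (1.87), Sox9 (1.83) and Tcf21 (1.51). Wt1, a factor of the epicardium, was at 83.6, 11.8 and 10.8 FPKM with infarct versus 13, 8.21 and 1.06 FPKM without, so the groups overlapped.

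Among the 7 dimer partners and inhibitors of Twist, Tcf3, which encodes the E proteins E12 and E47, was at 4.20, 5.33 and 1.99 FPKM with infarct versus 0.997, 1.03 and 0.653 FPKM without. Its groups did not overlap (difference 1.29, SE 0.48, limma adjusted p = 0.650). Id2 and Id3 encode inhibitors that bind E proteins and cannot bind DNA. Id2 was at 141, 133 and 36.3 FPKM with infarct versus 14.9, 19.1 and 219 FPKM without, and Id3 at 454, 812 and 186 FPKM versus 824, 287 and 31.3 FPKM. Their differences of 1.11 and 1.06 had limma adjusted p of 0.668 and 0.698, and that of Id3 turned to -0.25 without Normal Ms1608. The list's median of 0.90 was 0.02, 0.10 and -0.10 under the 3 scalings in the same order and 0.05 without Normal Ms1608, when 3 of 7 genes had separated groups against 1 with all libraries.

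Among 15 corepressors and regulators of Snail stability, 6 had every MI value above every Normal value and 4 were higher at an unadjusted p under 0.05. The shares were 25.0% and 15.3% among expressed genes, to which 12 of the 15 belong, and 12.6% and 6.37% among all genes. Without Normal Ms1608, 10 of the 15 had separated groups, against 52.6% of expressed genes. At the same p threshold 5 were then higher, against 2723 of the 10168. The list's median was 0.66, which is -0.12 relative to the 10168 expressed genes. Fbxl14, part of a ubiquitin ligase that targets Snail and Twist proteins, was at 59.8, 118 and 60.1 FPKM with infarct versus 23.1, 18.2 and 20.6 FPKM without (difference 1.82, SE 0.46, limma adjusted p = 0.650). Rcor1, a corepressor subunit, and Gsk3b, the kinase that marks Snai1 protein for destruction, had differences of 1.59 and 1.40 and separated groups. Among 8 gatekeepers of the epithelial state, only Esrp2, a splicing regulator, had a mean of at least 1 FPKM. It was at 2.79, 1.48 and 4.97 FPKM with infarct versus 2.15, 0.751 and 5.52 FPKM without.

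Among 26 inducing ligands, receptors and mediators, 7 had every MI value above every Normal value and 4 were higher at an unadjusted p under 0.05. The shares were 25.0% and 15.3% among expressed genes, to which 17 of the 26 belong, and 12.6% and 6.37% among all genes. Without Normal Ms1608, 12 of the 26 had separated groups, against 52.6% of expressed genes. At the same p threshold 3 were then higher, against 2723 of the 10168. The median was 0.62, which is -0.17 relative to the expressed genes. Tgfb3, a TGF-beta ligand, led with 13.7, 22.1 and 1.10 FPKM with infarct versus 0.861, 0.625 and 0.141 FPKM without (difference 2.56, SE 0.95, limma adjusted p = 0.650). Pdgfra and Pdgfrb, PDGF receptors of fibroblasts and of mural cells, had differences of 2.01 and 1.83, and also had separated groups.

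Markers of other cell types varied with the groups and with the factors, and their part in the differences of the factors was not tested. Of 12 fibroblast markers, all 12 had differences above 0, as deposited and under the 3 scalings, with a median of 2.53 (1.76 without Normal Ms1608), and 6 had separated groups with and without that library, against 25.0% and 52.6% of expressed genes. Their summed level was 1148 to 5034 FPKM in MI and 166 to 1106 FPKM in Normal, with Fap at 0 in Normal Ms1608. Within the MI group this sum was smallest in Ms1608, and Twist1, Prrx1, Zeb2, Snai2 and Twist2 were lowest there too, unlike Snai1 and Zeb1. The sums of pan-endothelial, pan-leukocyte, pericyte and epicardial markers were also smallest in MI Ms1608. Those of macrophage, B cell, neutrophil and cardiomyocyte markers were largest there among the MI libraries. Dcn itself was at 3035, 2717 and 702 FPKM with infarct versus 530, 707 and 104 FPKM without. Of 12 pan-leukocyte markers 0 had separated groups with all libraries and 12 without Normal Ms1608, and the summed level was 2137 to 2464 FPKM with infarct versus 287, 418 and 4067 FPKM without, the last in Normal Ms1608. Zeb2 was at 0.824 FPKM in that last library. Of 14 T and NK cell markers 5 had separated groups (summed level 351 to 1171 FPKM in MI and 79.2 to 1007 FPKM in Normal, with Prf1 at 0 in Normal Ms1537), and of 12 macrophage and monocyte markers 4 had (819 to 2358 and 161 to 2742 FPKM). Without Normal Ms1608 these counts were 11 of 14 and 8 of 12. Adgre1, which encodes the F4/80 antigen used to remove macrophages in the sort, was at 0.282, 1.70 and 7.21 FPKM with infarct versus 0.128, 0.247 and 0.00904 FPKM without.

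B cell markers (0 of 8 separated, summed level 144 to 316 FPKM in MI and 25.7 to 604 FPKM in Normal) and neutrophil markers (2 of 8, 4562 to 12032 and 2088 to 13380 FPKM) were present in both groups. Without Normal Ms1608, 8 of 8 B cell markers and 6 of 8 neutrophil markers were separated. Of 11 pericyte and smooth muscle markers 1 was separated, and their summed level was 25.9 to 33.5 FPKM in MI and 1.24 to 31.8 FPKM in Normal, with Myh11 at 0 in Normal Ms1535 and Cnn1 at 0 in Normal Ms1537. Without Normal Ms1608 their median difference turned from 0.17 to -0.06. Of the 11, 2 then lay below in every MI library, as did 1762 of 29631 genes. Pan-endothelial markers summed to 293 to 1191 FPKM with infarct versus 1371, 959 and 13.3 FPKM without, the last in Normal Ms1608, and 0 of 16 were separated. Their median difference was 0.67, with 15 of 16 above 0. Relative to the median of the expressed genes it was -0.12, and 6 of 16 lay above that median. The markers' median difference was -0.20, -0.11 and -0.36 under median-ratio, upper-quartile and quantile scaling. It was -0.74 without Normal Ms1608, with 1 of 16 above 0. Cardiomyocyte markers summed to 146 to 986 FPKM in MI and 8.58 to 801 FPKM in Normal (0 of 8 separated), and their median difference turned from 0.19 to -0.39 without Normal Ms1608, with 1 of 8 below in every MI library. Epicardial and mesothelial markers summed to 11.4 to 99.4 FPKM in MI and 8.58 to 36.6 FPKM in Normal, with 2 of 8 above in every MI library and 1 below (4 and 1 without Normal Ms1608). The epicardial list includes Wt1, and it was highest in MI Ms1535, where Snai1, Twist1, Twist2 and Prrx1 were also highest.

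**Figure D5:**
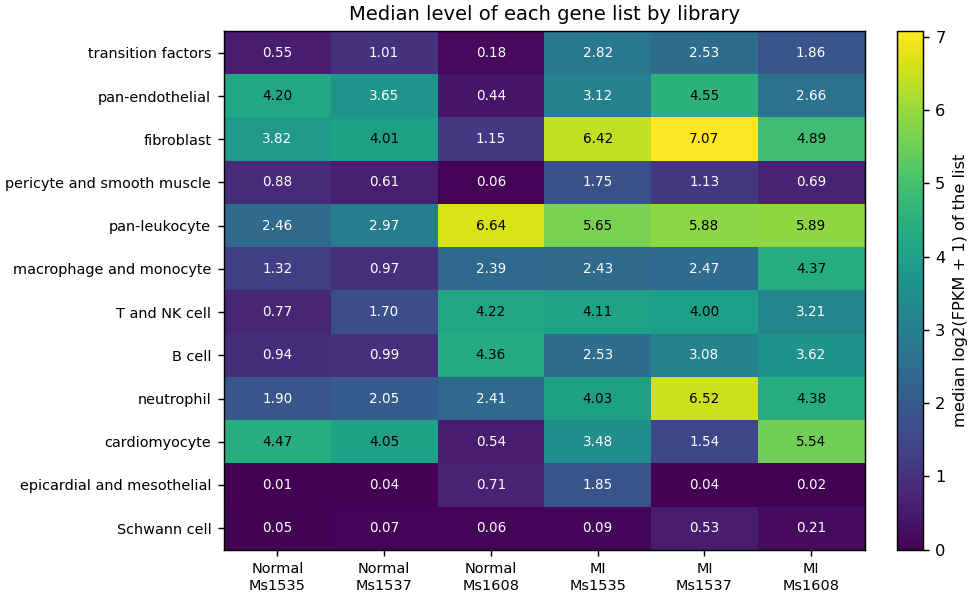
Median log2(FPKM + 1) of the 7 factors and of each cell type list in each library, written in each cell and shown as colour. The factors are lowest in Normal Ms1608 (0.18), where pan-endothelial (0.44) and fibroblast markers (1.15) are also lowest and pan-leukocyte markers are highest (6.64), and the factors and fibroblast markers are both higher in the 3 MI libraries than in the Normal libraries.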

How the data were processed

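RNA of 6 sorted heart cell libraries was amplified by in vitro transcription and sequenced, per the labels' protocols. The deposited table holds FPKM values per gene with 1 column per library, and the submitters' processing notes name STAR 2.4.2a and Cufflinks 2.2.1 with GRCm38. Which annotation release and strand setting were used is not given in the sources used here. Groups and library numbers came from the sample titles. The 7 factors, the gene lists and the naming rule (for each list the 3 genes with the largest difference at a mean of at least 1 FPKM, textbook cadherin, Vim and Fn1 targets always) were chosen with earlier results of these data known. Of 208 listed genes 204 were used, and the other 4 were not analysed here. Values of 1 listed marker gene are not reported here.

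MI was compared with Normal on log2(FPKM + 1) by limma 3.58.1 under R 4.3.3, with its trend option and with group as the only term, over 30623 genes above 0 in at least 1 library, and with Benjamini-Hochberg adjustment at 0.05. The fit was tested on simulated data. Scalings, pseudocounts of 0.1 and 5, a filter of at least 1 FPKM in 3 libraries, no trend, a replicate block and leaving out each library were the alternatives. Positions came from GENCODE M21. Implied fragments were read from steps of low values of genes with 1 annotated transcript, of which 93.1% to 94.3% lay within 0.1 of a whole number up to 4 fragments (20% if evenly spread). Each step was chosen on those values. Intervals from fragments cover counting error only.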

Additional observations from a re-analysis of the deposited data

How the results depend on the processing

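The factors passed the limma threshold under none of the 14 alternatives (lowest adjusted p 0.245, for Zeb2 with at least 1 FPKM in at least 3 libraries, where Twist2 was not tested). Of 97 values of single factors, 94 kept their direction and 3 turned, all of Snai2, to -0.000226 with upper-quartile and -0.21 with quantile scaling and to -0.16 without Normal Ms1608 (its values with 1 library left out ran from -0.16 to 1.24). The difference of Zeb2 lay between 1.79 and 3.80, that of Twist1 between 0.95 and 3.48 and that of Prrx1 between 0.90 and 3.44. The median over the 7 factors, 1.26 as reported, was 2.14 and 0.60 with pseudocounts of 0.1 and 5 and, for the median-ratio, upper-quartile and quantile methods of scaling, 0.66, 0.70 and 0.41. The factors with separated groups numbered 2 after each scaling, against 5 as deposited. Calls over all genes numbered 0 with a pseudocount of 5, 4 with no trend and 0 when any 1 library was left out, against 1. The cause of these changes was not tested.

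With the replicate number as a replicate block, 0 genes were called (1659 higher and 111 lower at an unadjusted p under 0.05), and the difference of Zeb2 was 2.98 (SE 0.52, limma adjusted p = 0.647). The labels do not state that the numbers pair the libraries, so they were not taken to do so in the main fit. Deviations of same-numbered libraries from their group means correlated at -0.02, 0.07 and 0.08. For 2 of the 3 numbers the MI library correlated best with its own number. With 3 libraries per group, 1 of them outlying, these correlations cannot decide whether the libraries are paired. Low values limit Twist2 and the factors in Normal Ms1608 most.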
